A study of Homo sapiens with 6 samples.

Results

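Immediate early genes and the phosphatases that shut off mitogen-activated protein kinase (MAPK) signalling were followed in NCI-N87, an established human gastric carcinoma cell line, with and without the keratin gene KRT17. The 10 genes are the transcription factor genes EGR1, FOS, FOSB, FOSL1, JUN, JUNB and ATF3, the phosphatase genes DUSP1 and DUSP6, and the survival gene IER3. They were taken by name from GENCODE release 29, by a rule that uses no measured value, and each matched 1 of the 58735 gene IDs in the deposited files. The names themselves were chosen with earlier results of these data known. RNA from unmodified cells (WT) and from the knockout groups KO1 and KO2 was sequenced in 2 libraries per group, 6 in all. The labels give every group as the same cell line and name no treatment or time. The labels do not say how the knockout was made, whether KO1 and KO2 are guides or clones, or whether the libraries of a group came from separate cultures, so p-values measure a spread between libraries that may be technical.

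Immediate early genes are transcribed within minutes of a stimulus without new protein synthesis, mainly through serum response factor, its ternary complex partners phosphorylated by the kinase ERK, and the cyclic AMP response element binding protein CREB. FOS and JUN family proteins pair to form the transcription factor AP-1, and EGR1 binds GC-rich sites as a zinc finger protein. DUSP1 and DUSP6 are dual-specificity phosphatases that remove the activating phosphates from MAP kinases, DUSP1 in the nucleus with a preference for p38 and JNK, and DUSP6 in the cytoplasm with a preference for ERK. In gastric epithelium the pathway relays signals from growth factor receptors.

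Levels are given in FPKM, fragments scaled by the exon length of the gene and by a denominator per library, which allows genes to be compared per unit of length. That denominator was not the library size alone: it was 0.936 and 0.945 times the recovered reads in WT, 1.03 and 1.04 times in KO1 and 1.05 times in both KO2 libraries, a difference that places WT higher against the knockouts than a scaling by recovered reads would. The calls of the 9 tested genes against WT were the same with voom on the recovered reads, which does not use it. The recovered read totals lay between 17599759 and 22852340 per library, and 1 read in a gene of 1 kb was worth 0.0429 to 0.0544 FPKM. KRT17 stood at 739 and 753 FPKM in the WT libraries, against 2.29 and 2.40 for KO1 and 11.3 and 10.4 for KO2. Of 8 markers of epithelium and of NCI-N87, 8 were lower in KO1 and 8 in KO2, and their summed level was 5018 to 5186 FPKM over the WT libraries, 380 to 391 over KO1 and 321 to 323 over KO2. Defining markers of the line were at or near 0 in the knockouts: KRT19 had 2 and 8 reads in KO1 and 0 in KO2, CDX2 had at most 1 read in any knockout library, and ERBB2, highly expressed in this line, went from 1387 ± 46.4 FPKM (SD, n = 2) to 5.82 ± 0.360 and 5.29 ± 0.0233. By these markers the knockout libraries could not be recognised as NCI-N87; whether they come from that line was not tested, so each fold against WT below compares libraries as labelled and cannot be assigned to the loss of KRT17 alone. Of 6 fibroblast markers 4 were tested and all 4 were higher in each knockout. The summed level of the 6 was 0.745 to 0.855 FPKM over the WT libraries, 44.2 to 44.7 over KO1 and 54.9 to 57.5 over KO2. None thus reached 1 FPKM in a WT library. The tested 4 passed the filter of 1 FPKM in 2 libraries only through the knockouts, which favours higher calls. PDGFRA had 0 reads in all 6 libraries. Summed leukocyte markers were at 1.35 to 1.41 FPKM over WT, 1.15 to 1.24 over KO1 and 2.07 to 2.19 over KO2. Summed endothelial markers, none of them tested, were at 0.106 to 0.127, 0.668 to 0.746 and 0.717 to 0.722 FPKM. The part of these differences in the results below was not tested, and in bulk RNA fewer cells of a type and less RNA per cell cannot be told apart.

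Against WT, 9 of the 10 genes could be tested and the other, FOSB, was below the filter of 1 FPKM in 2 libraries; DUSP6 passed it on its WT and KO1 libraries. In KO1, 3 of the 9 rose (DUSP1, ATF3 and IER3) where 39.3% of all 16046 genes tested were called higher, and 6 fell (EGR1, FOS, FOSL1, JUN, JUNB and DUSP6) where 38.6% were called lower. In KO2 the counts were again 3 higher and 6 lower, against 39.1% and 39.8% of all genes, so shares of calls near these say little about the genes as a group. The sizes varied widely: the median log2 fold change over the 9 genes was -0.63 in KO1 and -0.94 in KO2, beside 0.02 and 0.01 over all genes, with extremes of 5.04 and -4.83. Between the knockouts, 8 of 9 were lower in KO2 than in KO1 and none was higher, where 15.0% of all genes were called lower and 11.2% higher, and the median was -0.59 beside -0.01. A call is a limma adjusted p (Benjamini-Hochberg over all genes tested) below 0.05, and fold changes were taken on log2(FPKM + 1), where genes at low levels appear to change less than they do. The KO1 and KO2 comparisons share the WT libraries.

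**Figure D1:**
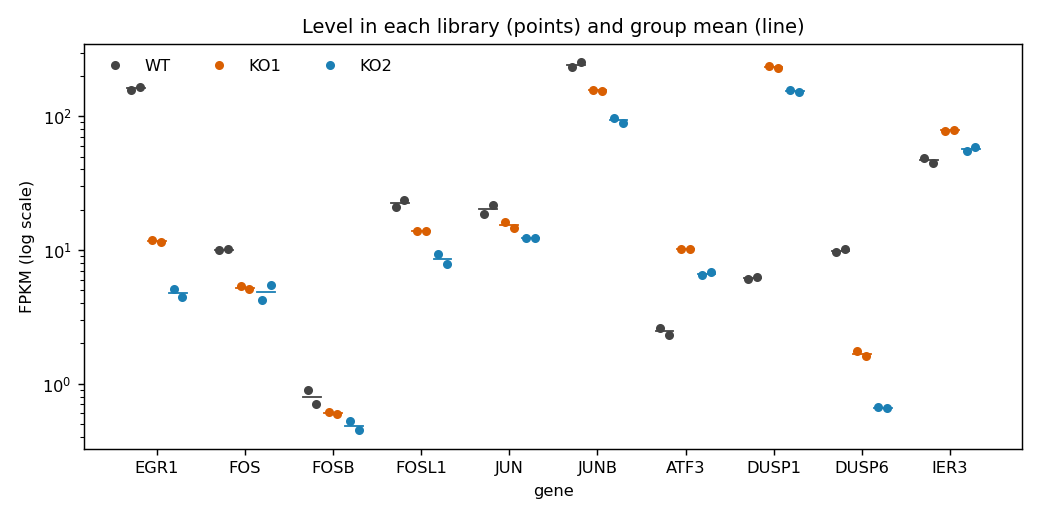
Level of each of the 10 genes in each library, in FPKM on a log axis, with 1 point per library, a line at each group mean and colours for WT, KO1 and KO2. Among the 10 genes, the largest separations of WT from knockout points are those of EGR1 (158 and 167 FPKM in WT, 4.41 to 11.8 in the knockouts) and DUSP1 (6.01 and 6.26 in WT, 153 to 239.8 in the knockouts).

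EGR1, a zinc finger transcription factor induced by ERK and serum response factor, lies at chr5:138465490-138469315 of GRCh38 on the plus strand (ENSG00000120738). It stood at 158 and 167 FPKM in the WT libraries, 11.8 and 11.5 in those of KO1 and 5.10 and 4.41 in those of KO2, from 10681 and 9598 reads down to 314 and 257. The 3 groups did not overlap, and the replicates of each lay close together beside the gaps between groups. The mean fell from 162 ± 6.28 FPKM (SD, n = 2) to 11.6 ± 0.256 in KO1, 13.9-fold lower (log2 fold change -3.69 ± 0.07 SE, limma adjusted p = 1.08e-06). In KO2 it was 4.76 ± 0.490 FPKM, 34.1-fold lower than WT (-4.83 ± 0.07, limma adjusted p = 5.26e-07). KO2 was also below KO1 (-1.14 ± 0.07, limma adjusted p = 9.00e-04). In WT EGR1 was the second most abundant of the 10 genes per length; in KO2 its libraries overlapped those of FOS.

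DUSP1, the nuclear MAPK phosphatase and itself an immediate early gene, went the other way. The gene (ENSG00000120129) lies on the minus strand at chr5:172768090-172771195. Its WT libraries were at 6.01 and 6.26 FPKM, its KO1 libraries at 239.8 and 228, and its KO2 libraries at 157 and 153. The lowest knockout library was far above the highest WT library, and both KO1 libraries were above both KO2 libraries. The mean rose 38.1-fold in KO1 to 234 ± 8.29 FPKM (SD, n = 2; log2 fold change 5.04 ± 0.04, limma adjusted p = 1.50e-07) and 25.3-fold in KO2 to 155 ± 2.74 (4.45 ± 0.04, limma adjusted p = 1.91e-07). KO2 was lower than KO1 (-0.59 ± 0.04, limma adjusted p = 0.00101). DUSP1 was the eighth of the 10 genes by level in WT and the first in both knockouts. An antisense gene there, ENSG00000253736, shares no exon bases with it and reached at most 2.38 FPKM.

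DUSP6, the cytoplasmic ERK phosphatase and a negative feedback gene of that pathway, fell as DUSP1 rose. The gene (ENSG00000139318) lies on the minus strand at chr12:89347232-89353271. It was at 9.59 and 10.1 FPKM in the WT libraries, 1.74 and 1.61 in those of KO1 and 0.672 and 0.651 in those of KO2, with no overlap between any groups. The mean of 9.84 ± 0.359 FPKM (SD, n = 2) in WT was 5.87-fold lower in KO1, at 1.68 ± 0.0886 (log2 fold change -2.02 ± 0.06, limma adjusted p = 4.52e-06). It was 14.9-fold lower in KO2, at 0.661 ± 0.0146 (-2.71 ± 0.06, limma adjusted p = 1.81e-06), and lower in KO2 than in KO1 (-0.69 ± 0.06, limma adjusted p = 0.00212). This last difference was -1.22 with 0.1 FPKM added in place of 1 and -1.31 with voom on recovered reads. An antisense gene, ENSG00000274021, shares 1875 exon bases with DUSP6 and was at 0.616 and 0.265 FPKM in WT; no source used here gives the strand setting of the counting, so reads of overlapping genes on opposite strands cannot be told apart. The ratio of DUSP1 to DUSP6 in FPKM was 0.627 and 0.620 in the WT libraries, 138 and 141 for KO1 and 233 and 235 for KO2.

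The sequence before the start of EGR1 and DUSP1 is shown because they had the largest changes, and that of JUNB because it was the most abundant of the genes in WT; the 3 carry different textbook response elements. The RefSeq promoter windows (GRCh38.p14, 250 bases before to 50 after the start) held 8 of the 10 genes; FOSL1 and IER3 were not among them. Each line gives the 150 bases before the start, 5′ to 3′ on the gene's strand, with matches in capitals: CArG boxes, the core site of serum response factor, in EGR1, the cyclic AMP response element TGACGTCA in DUSP1, and CTTCCG, the reverse complement of the ETS core CGGAAG, in JUNB.
EGR1, chr5:138465329-138465478, plus strand: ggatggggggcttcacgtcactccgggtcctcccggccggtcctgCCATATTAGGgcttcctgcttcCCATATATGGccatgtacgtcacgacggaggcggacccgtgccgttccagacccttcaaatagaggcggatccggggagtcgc
DUSP1, chr5:172771196-172771345, minus strand: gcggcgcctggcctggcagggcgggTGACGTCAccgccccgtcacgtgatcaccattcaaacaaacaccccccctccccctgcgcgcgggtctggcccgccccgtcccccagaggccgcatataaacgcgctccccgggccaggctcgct
JUNB, chr19:12791336-12791485, plus strand: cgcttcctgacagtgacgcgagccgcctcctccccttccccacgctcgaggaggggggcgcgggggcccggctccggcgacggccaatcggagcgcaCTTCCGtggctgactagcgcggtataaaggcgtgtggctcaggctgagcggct

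EGR1 had CArG boxes from 105 to 96 and from 83 to 74 bases before its start, and no other of the 8 genes had one in its window. A CArG box was an exact match to CCWWWWWWGG, W being A or T, and sites outside the windows were not searched. DUSP1 had TGACGTCA from 125 to 118 bases before the start. JUNB had the ETS core from 53 to 48 bases before the start, DUSP6 from 62 to 57 before a RefSeq start that lies inside the GENCODE gene, and ATF3, in one of its windows, from 38 to 43 after. Both strands were searched, and no match overlapped another. Over all 35116 promoter windows of the same length, 1.29% held a CArG box, 1.85% TGACGTCA and 19.5% CGGAAG. The AP-1 site TGACTCA, in 4.95% of all windows, and the EGR site GCGTGGGCG, in 0.795%, were in none of the windows of these 8 genes. A match is a description of the letters and not evidence of a bound site.

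The FOS family contributes the AP-1 partners that cannot pair with themselves. FOS (ENSG00000170345, plus strand, chr14:75278774-75282230) was at 9.98 and 10.2 FPKM in the WT libraries, 5.36 and 5.08 in those of KO1 and 4.21 and 5.42 in those of KO2. Both WT libraries were above all knockout libraries, while the KO1 and KO2 libraries overlapped. FOS fell 1.93-fold in KO1, from 10.1 ± 0.122 to 5.22 ± 0.198 FPKM (SD, n = 2; log2 fold change -0.83 ± 0.10, limma adjusted p = 9.45e-04), and 2.09-fold in KO2, to 4.81 ± 0.860 (-0.94 ± 0.10, limma adjusted p = 5.75e-04). It was the only tested gene of the 10 with no call between the knockouts (-0.11 ± 0.10, limma adjusted p = 0.523).

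FOSL1, which encodes the FRA1 subunit linked with sustained ERK activity, was higher than FOS in every library. The gene (ENSG00000175592) lies on the minus strand at chr11:65892049-65900573. It was at 21.0 and 23.7 FPKM in the WT libraries, 13.8 and 13.8 in those of KO1 and 9.30 and 7.79 in those of KO2, a stepwise order with no overlap. FOSL1 fell 1.62-fold in KO1, from 22.3 ± 1.89 to 13.8 ± 0.0561 FPKM (SD, n = 2; -0.66 ± 0.09, limma adjusted p = 0.00156), and 2.61-fold in KO2, to 8.55 ± 1.07 (-1.29 ± 0.09, limma adjusted p = 1.02e-04). The difference of KO2 from KO1 was -0.64 ± 0.09 (limma adjusted p = 0.00884); it lost its call without KO1 replicate 1 (limma adjusted p = 0.0581) and without KO1 replicate 2 (0.0545).

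FOSB (ENSG00000125740, plus strand, chr19:45467995-45475179) was the least abundant of the 10 in every group. It stood at 0.892 and 0.706 FPKM in the WT libraries, 0.618 and 0.594 in those of KO1 and 0.524 and 0.446 in those of KO2, from 46 to 107 reads. The groups did not overlap, with means of 0.799 ± 0.132, 0.606 ± 0.0165 and 0.485 ± 0.0548 FPKM (SD, n = 2). Without the filter on low values it was not called in KO1 (log2 fold change -0.16, limma adjusted p = 0.28) or in KO2 (-0.28, limma adjusted p = 0.088). FOSB lies inside the span of ERCC1 on the other strand, with no shared exon bases.

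JUNB, the AP-1 subunit often set against JUN in growth control, was the most abundant of the 10 in WT. The gene (ENSG00000171223) lies on the plus strand at chr19:12791496-12793315. Its level was 234 and 253 FPKM in the WT libraries, 158 and 156 in those of KO1 and 96.5 and 89.8 in those of KO2, again stepwise and without overlap. JUNB fell 1.55-fold in KO1, from 244 ± 13.5 to 157 ± 1.84 FPKM (SD, n = 2; -0.63 ± 0.05, limma adjusted p = 1.80e-04), and 2.62-fold in KO2, to 93.2 ± 4.71 (-1.38 ± 0.05, limma adjusted p = 1.00e-05). The difference of KO2 from KO1 was -0.75 ± 0.05 (limma adjusted p = 0.00133). HOOK2, on the opposite strand, shares 259 exon bases with JUNB and was between 4.80 and 12.9 FPKM.

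JUN (ENSG00000177606, minus strand, chr1:58780788-58784327), the founding AP-1 subunit and a JNK substrate, moved least among the genes that fell. It was at 18.7 and 21.5 FPKM in the WT libraries, 16.2 and 14.7 in those of KO1 and 12.4 and 12.3 in those of KO2, with no overlap between groups. JUN fell 1.30-fold in KO1, from 20.1 ± 2.04 to 15.4 ± 1.05 FPKM (SD, n = 2; -0.36 ± 0.08, limma adjusted p = 0.00906), and 1.63-fold in KO2, to 12.4 ± 0.0179 (-0.66 ± 0.08, limma adjusted p = 7.99e-04). The difference between the knockouts, -0.30 ± 0.08 (limma adjusted p = 0.0493), was called in 4 of 13 alternatives.

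ATF3, a stress-induced member of the ATF and CREB family that can pair with JUN proteins, rose. The gene (ENSG00000162772) lies on the plus strand at chr1:212565334-212620777. It was at 2.59 and 2.32 FPKM in the WT libraries, 10.2 and 10.2 in those of KO1 and 6.48 and 6.80 in those of KO2, so that KO2 lay between WT and KO1. ATF3 rose 4.16-fold in KO1, from 2.45 ± 0.193 to 10.2 ± 0.00262 FPKM (SD, n = 2; 1.70 ± 0.06, limma adjusted p = 6.40e-06), and 2.70-fold in KO2, to 6.64 ± 0.227 (1.15 ± 0.06, limma adjusted p = 2.30e-05). It was lower in KO2 than in KO1 (-0.55 ± 0.06, limma adjusted p = 0.00302).

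IER3, an early response gene with roles in cell survival and ERK signalling, also stood highest in KO1. The gene (ENSG00000137331) lies on the minus strand at chr6:30743199-30744554. Its level was 48.6 and 45.0 FPKM in the WT libraries, 77.6 and 79.7 in those of KO1 and 54.9 and 58.6 in those of KO2, with no overlap. IER3 rose 1.68-fold in KO1, from 46.8 ± 2.59 to 78.7 ± 1.44 FPKM (SD, n = 2; 0.74 ± 0.05, limma adjusted p = 9.09e-05), and 1.21-fold in KO2, to 56.7 ± 2.61 (0.27 ± 0.05, limma adjusted p = 0.00471). The difference between the knockouts was -0.46 ± 0.05 (limma adjusted p = 0.00386). IER3-AS1, on the opposite strand, shares 359 exon bases with it.

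**Figure D2:**
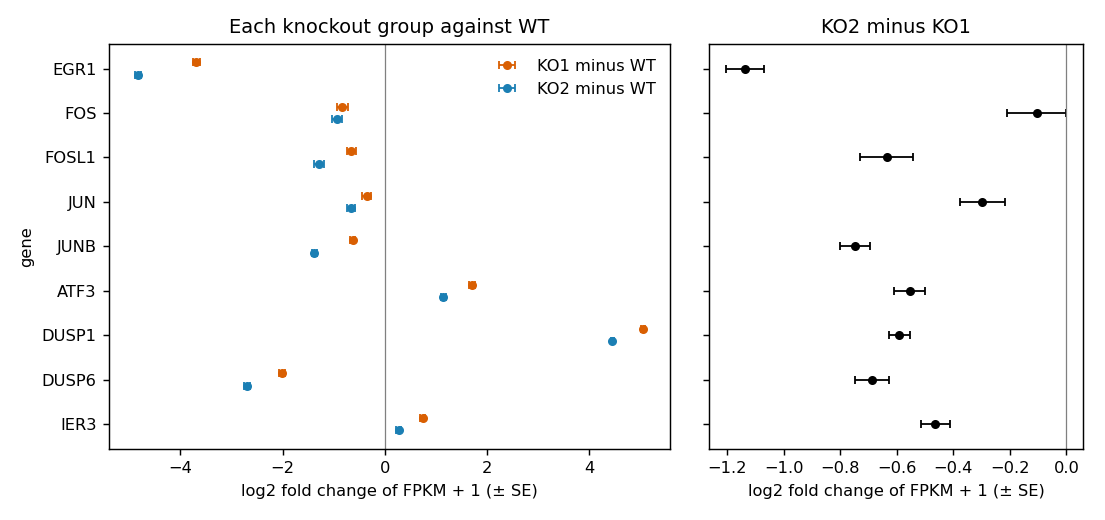
Log2 fold change of FPKM + 1 of the 9 tested genes, with bars of 1 SE from limma; the left panel sets each knockout group against WT and the right panel sets KO2 against KO1. EGR1 lies at -3.69 and -4.83 and DUSP1 at 5.04 and 4.45 against WT, while all 9 points of the right panel lie below 0, that of FOS (-0.11) without a call.

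The order of the genes by FPKM differed between the groups. In WT it was JUNB, EGR1, IER3, FOSL1, JUN, FOS, DUSP6, DUSP1, ATF3 and FOSB, where the libraries of FOSL1 and JUN overlapped, as did those of FOS and DUSP6. In KO1 it was DUSP1, JUNB, IER3, JUN, FOSL1, EGR1, ATF3, FOS, DUSP6 and FOSB, with no neighbours overlapping. KO2 kept the first 5 places of KO1 and then had ATF3, FOS, EGR1, DUSP6 and FOSB, with FOS and EGR1 overlapping. EGR1 exceeded DUSP1 26.2- and 26.6-fold in the WT libraries, and DUSP1 exceeded EGR1 20.3- and 19.9-fold in KO1 and 30.7- and 34.7-fold in KO2.

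Within AP-1, the listed subunits together made up a smaller part of the FOS and JUN families in the knockouts, while FOSL2 and JUND, which are not among the 10 genes, made up a larger one. The summed level of FOS, FOSB, FOSL1 and FOSL2 was 54.9 ± 3.43 FPKM (SD, n = 2) for WT, 57.9 ± 0.552 for KO1 and 42.6 ± 0.340 for KO2. FOSL1 made up 40.7 ± 0.908% of that sum in WT, 23.8 ± 0.131% in KO1 and 20.1 ± 2.34% in KO2, and FOS 18.4 ± 0.926%, 9.02 ± 0.256% and 11.3 ± 2.11%. FOSL2 made up 39.5 ± 0.349%, 66.1 ± 0.145% and 67.5 ± 0.354%, and its own level rose in both knockouts (log2 fold changes 0.79 and 0.39), as did that of JUND (0.24 and 0.80). The summed level of JUN, JUNB and JUND was 319 ± 19.0 FPKM for WT, 238 ± 0.817 for KO1 and 203 ± 10.2 for KO2. JUNB went from 76.4 ± 0.318% of it to 66.0 ± 0.547% and 46.0 ± 0.0151%, while JUND went from 17.4 ± 0.0515% to 27.6 ± 0.967% and 47.9 ± 0.283%. JUN itself kept a share between 6.11% and 6.48% in the group means. These shares are of RNA per length, and the shares themselves were not tested.

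**Figure D3:**
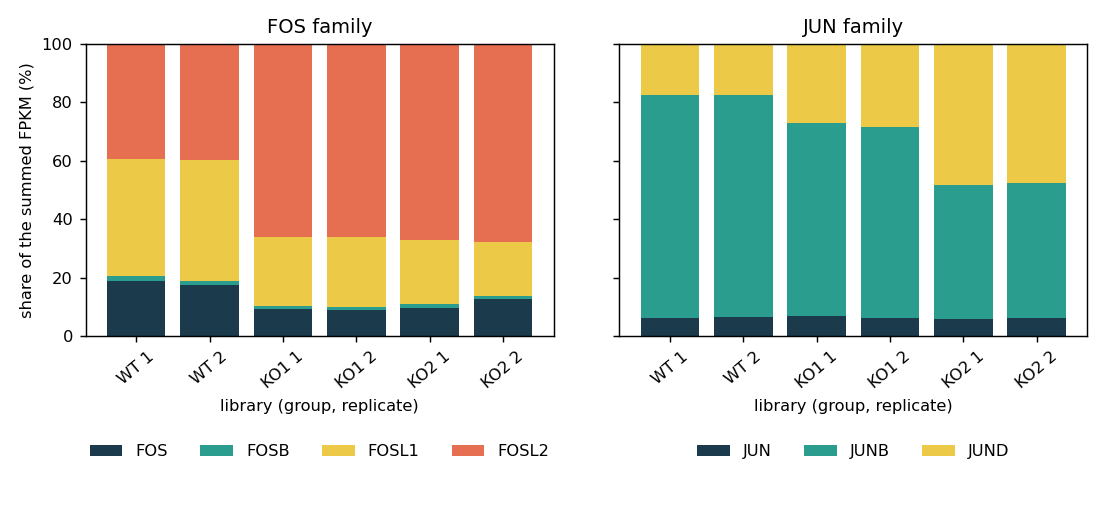
Share of the summed FPKM of the FOS family (left) and the JUN family (right) held by each subunit gene, as stacked bars in percent with 1 bar per library. The mean share of FOSL2 is 39.5% for WT, 66.1% for KO1 and 67.5% for KO2, and that of JUND is 17.4%, 27.6% and 47.9%.

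Other genes of the pathway were read from lists by function, some of which share genes. The lists were chosen with earlier results of these data known, so their counts are descriptions. Their counts stand beside the shares of all genes tested, which were 39.3% higher and 38.6% lower in KO1, 39.1% and 39.8% in KO2, and 11.2% and 15.0% for KO2 against KO1. Of 22 other immediate early genes 20 were tested: 12 rose and 5 fell in KO1 (median log2 fold change 0.25), 10 rose and 8 fell in KO2 (0.23), and between the knockouts 4 were higher and 10 lower in KO2 (-0.21). With equal library sums 15 rose and 4 fell in KO1, and 12 rose and 7 fell in KO2. That scaling called 7113 of all 16046 genes higher and 5428 lower in KO1, and 7281 and 5441 in KO2. NR4A3 and KLF2, among those that rose in each knockout, were below 1 FPKM in both WT libraries. They passed the filter only through the knockouts, which favours higher calls. The untested genes, EGR2 and EGR3, had lower means in the knockouts. EGR2 averaged 0.676 FPKM for WT, 0.0535 for KO1 and 0.0561 for KO2, and EGR3 0.114, 0.0447 and 0.0161. ZFP36, which encodes an mRNA decay factor, moved in the same direction as EGR1, from 35.3 ± 0.579 FPKM in WT to 5.87 ± 0.398 and 5.44 ± 0.835 (log2 fold changes -2.40 and -2.50). NR4A1, an orphan nuclear receptor gene, moved in the same direction as DUSP1, from 3.25 ± 0.124 FPKM to 21.7 ± 0.238 and 17.3 ± 0.819 (2.42 and 2.10). SGK1, a kinase gene, rose from 1.65 ± 0.0707 FPKM to 20.9 ± 0.0405 and 16.4 ± 0.568 (3.05 and 2.72).

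Of the 8 other MAPK phosphatase genes, 6 rose and 1 fell in KO1 (median 0.65), and 5 rose and 3 fell in KO2 (0.46). With equal library sums 7 rose and 1 fell in KO1, and 5 rose and 2 fell in KO2. That scaling called 7113 of all 16046 genes higher in KO1 and 7281 in KO2. DUSP4 and DUSP10, among those that rose in each knockout, were below 1 FPKM in both WT libraries. They passed the filter only through the knockouts, which favours higher calls. Between the knockouts 4 of the 8 were lower in KO2 and none higher (-0.30). Over all genes 39.3% were called higher in KO1, 39.1% in KO2 and 15.0% lower between the knockouts. DUSP4, a nuclear phosphatase of ERK, rose from 0.463 ± 0.0398 FPKM (WT) to 17.6 ± 0.0103 (KO1) and 9.78 ± 0.273 (KO2) (log2 fold changes 3.67 and 2.88). DUSP9 rose from 5.28 ± 0.271 FPKM to 26.6 ± 0.311 and 16.5 ± 1.01 (2.14 and 1.48). DUSP2 fell like DUSP6, from 25.2 ± 2.03 FPKM to 5.44 ± 0.377 and 3.48 ± 0.499 (-2.02 and -2.55). DUSP5 rose in KO1 (0.78) and fell in KO2 (-0.93), with means of 8.20 ± 0.174 FPKM for WT, 14.8 ± 0.436 for KO1 and 3.83 ± 0.377 for KO2.

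Among 15 output and feedback genes of ERK, the kinase that DUSP6 acts on, 13 were tested. In KO1 5 rose and 7 fell (median -0.33), and in KO2 2 rose and 11 fell (-0.93), where 38.6% and 39.8% of all genes fell. Between the knockouts 12 of 13 were lower in KO2 and none was higher (-0.74), where 15.0% of all genes were called lower, and the same count of 12 lower was found with quantile normalization, with equal library sums and with voom on recovered reads. In that order, these called 2130, 1943 and 2702 of all 16046 genes lower. DUSP4 and DUSP5, described above, are also in this list, and the rise of DUSP4 (3.67 and 2.88) was its largest change in KO1. The 2 that rose in KO2, DUSP4 and ETV1, were below 1 FPKM in both WT libraries. They passed the filter only through the knockouts, which favours higher calls. SPRY1, among those that fell, was at 1.83 and 2.09 FPKM in WT, 0.822 and 1.30 in KO1 and 0.296 and 0.163 in KO2. Without its WT libraries SPRY1 would have missed the filter, which favours lower calls. PHLDA1, an ERK-induced gene, fell from 39.7 ± 0.0745 FPKM in WT to 3.11 ± 0.262 and 1.83 ± 0.237 (-3.31 and -3.85). SPRED1, an inhibitor of RAS signalling, fell from 7.75 ± 0.156 FPKM to 2.03 ± 0.015 and 1.14 ± 0.0708 (-1.53 and -2.03). SPRY2, a feedback inhibitor of receptor signalling, had means of 2.65 ± 0.0471 FPKM for WT, 3.77 ± 0.13 for KO1 and 0.992 ± 0.00147 for KO2, higher in KO1 (0.39) and lower in KO2 (-0.87).

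Of the 26 genes of the RAS and MAPK cascade itself, 3 were higher, 2 lower and 21 not called in KO2 against KO1 (median -0.02), where 11.2% of all genes were called higher and 15.0% lower. The members went both ways, from 0.73 for SHC1, an adaptor of receptor signalling, to -0.32 for HRAS. With equal library sums 6 were higher and 2 lower, where that scaling called 2267 of all 16046 genes higher and 1943 lower. Against WT, 9 rose and 14 fell in KO1 (-0.12) and 12 rose and 12 fell in KO2 (-0.04). Scaling to equal library sums turned the KO1 count to 11 higher and 9 lower, where all genes went to 7113 higher and 5428 lower. MAP2K6, an activator of p38, rose from 1.06 ± 0.0174 FPKM to 23.3 ± 0.367 and 25.0 ± 0.436 (3.56 and 3.66).

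Of 11 regulators of the immediate early promoters (serum response factor, ternary complex factors, CREB family and cofactors), 4 rose and 4 fell in KO1 (median 0.07) and 5 rose and 4 fell in KO2 (0.04), and 3 were higher and 2 lower in KO2 than in KO1 (-0.03). The balance against WT depended on the scaling: with equal library sums 7 rose and 3 fell in KO1 (0.20) and 6 rose and 2 fell in KO2 (0.22). That scaling called 7113 of all 16046 genes higher and 5428 lower in KO1, with a median of 0.14. In KO2 it called 7281 higher and 5441 lower, with a median of 0.15. Over all genes 39.3% and 39.1% were called higher as deposited. CRTC3, a CREB coactivator gene, rose from 4.26 ± 0.528 FPKM to 18.7 ± 0.0411 and 17.3 ± 0.381, and ATF1 from 13.7 ± 1.19 to 39.9 ± 2.01 and 32.5 ± 0.918. Of 11 other AP-1 and ATF subunit genes, 6 rose and 2 fell in KO1 (0.17) and 4 rose and 6 fell in KO2 (-0.12), with 1 higher and 5 lower in KO2 than in KO1 (-0.14); with equal library sums the KO2 count was 4 higher and 4 lower (0.06). MAFK, a small MAF gene, rose from 12.9 ± 0.156 FPKM to 180.5 ± 0.342 and 146 ± 11.2 (3.71 and 3.40).

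**Figure D4:**
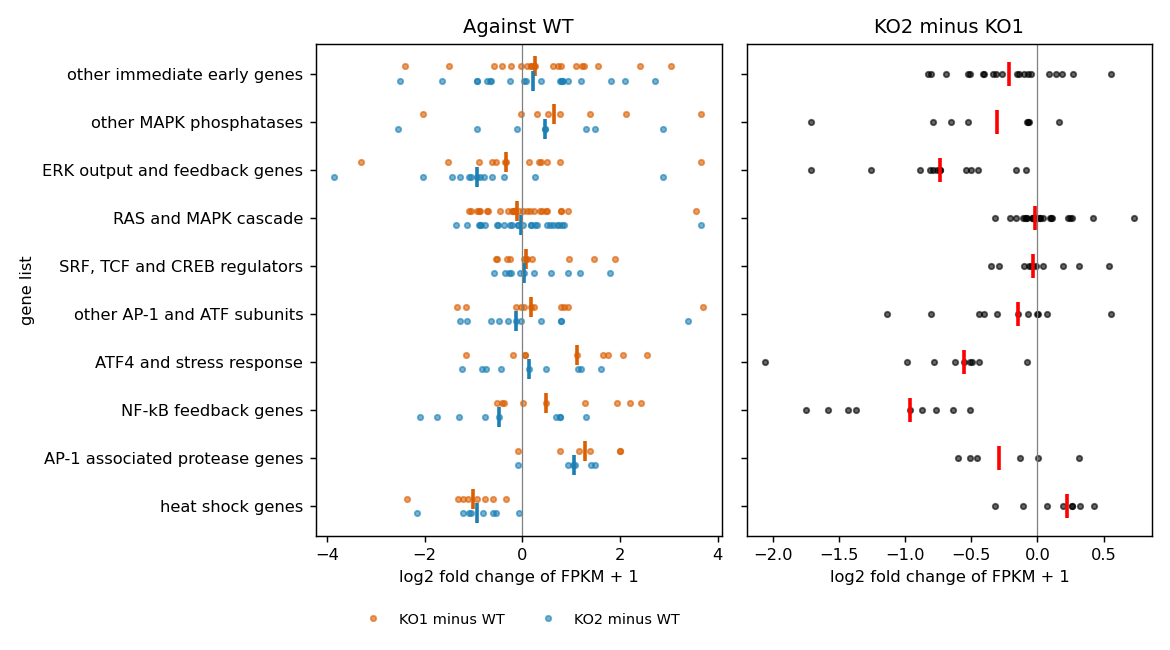
Log2 fold change of FPKM + 1 of each tested gene of 10 context lists, 1 point per gene, with a tick at the list's median; the left panel sets KO1 and KO2 against WT and the right panel sets KO2 against KO1. In the right panel the medians of the ERK output list (-0.74) and the NF-kB feedback list (-0.96) lie farthest to the left.

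The genes' surroundings gave another view. The median log2 fold change of tested protein-coding genes within 1 Mb was -0.19 in KO1 and -0.08 in KO2 around EGR1 (17 neighbours) and 0.46 and 0.33 around DUSP1 (13 neighbours), beside -0.05 and -0.07 over all 11882 protein-coding genes. Both genes thus changed by far more than the median gene near them. Around IER3, in the gene-dense region of the major histocompatibility complex, the median of 48 neighbours was 0.87 and 0.86, above the change of IER3 itself (0.74 and 0.27), and 38 of the 48 were called higher in each knockout. Around FOSB the median of 45 neighbours was -0.83 and -0.94, below the change of FOSB (-0.16 and -0.28 in the fit without the filter). Around JUN, with 3 neighbours, it was -0.40 and -0.22. Around JUNB, FOSL1 and ATF3 the medians lay between -0.04 and 0.29. Around DUSP6 they were -0.57 and -0.52 (4 neighbours) and around FOS -0.49 and -0.47 (21 neighbours).

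The protein-coding genes closest in pattern were found by the root mean square difference in log2(FPKM + 1), taken relative to WT, over the 6 libraries, among 11881 genes. JUNB and FOSL1 were near each other: FOSL1 had JUNB as its closest gene (0.0652), and JUNB had EPHA2 (0.0616), AK4 (0.0638) and then FOSL1. DUSP6 had DUSP2 closest (0.112). EGR1 had LOXL4 (0.238) and DUSP1 had MARCOL (0.0561), followed by COL4A2 (0.169). The WT means of MARCOL and COL4A2 were 0 and 0.289 FPKM, beside 6.13 for DUSP1. With 1 FPKM added, a gene silent in WT can thus look close to DUSP1. The closest to JUN was MED27 (0.0282), to FOS PPM1F (0.0516), to IER3 ABHD5 (0.0452) and to ATF3 STRIP2 (0.0665). This likeness is a distance over 6 libraries in 3 groups and says nothing of shared control.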

How the data were processed

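RNA of 6 NCI-N87 libraries (WT, KO1 and KO2, 2 each) was analysed from the FPKM that the authors deposited, 1 table per library. The submitters' processing notes name HISAT2 2.0.5, featureCounts 1.5.0-p3 and hg38; which step used which tool, the strand setting and the annotation were not given in the sources used here. GENCODE release 29 held every one of the 58735 IDs and gave names, exon lengths and GRCh38 coordinates. FPKM times exon length came out as whole reads for 100% of values (tolerance 0.1 of a read), which gave the depths; depth limits the precision of low genes, and counting error is only part of the error.

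Group means were fitted over all 6 libraries with limma 3.58.1 (R 4.3.3, mean-variance trend) on log2(FPKM + 1) for the 16046 genes with at least 1 FPKM in 2 libraries, with Benjamini-Hochberg adjustment and calls below 0.05. The fit was also run on simulated reads in which a small set of genes was changed, in KO1 only. In these data most genes were called against WT, so that run says nothing of the error rates here. The genes and lists were chosen with earlier results of these data known. All 10 genes are named; of each context list, genes were named from the up to 3 with the smallest adjusted p between the knockouts and the up to 3 with the largest log2 fold change in KO1. FOSL2, HSP90AA1, ERCC1, HOOK2, EGR2, EGR3, KLF2, NR4A3, DUSP10, ETV1, SPRY1 and the markers fall outside that rule and were picked with their values known. The 3 closest genes in pattern were found for each gene, and the first or first few are printed. Alternatives changed the pseudocount, the filter, the scaling (quantile, TPM), the model (voom on recovered reads), the replicate block and the libraries included.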

Additional observations from a re-analysis of the deposited data

Results flagged for a closer look

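Set against the same WT libraries, KO1 and KO2 differed in their fold changes for 8 of the 9 tested genes, by limma's test of KO2 against KO1. The log2 differences, KO2 minus KO1, were -1.14 for EGR1, -0.75 for JUNB, -0.69 for DUSP6, -0.64 for FOSL1, -0.59 for DUSP1, -0.55 for ATF3, -0.46 for IER3 and -0.30 for JUN. EGR1, JUNB, DUSP6, FOSL1 and JUN were thus farther below WT in KO2, and DUSP1, ATF3 and IER3 less far above it. The share of all genes called lower in this comparison was 15.0%. KRT17 itself stood at 2.29 and 2.40 FPKM in KO1 and at 11.3 and 10.4 in KO2; whether this has a part in the differences was not tested.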

How the results depend on the processing

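Against WT, the calls of all 9 tested genes kept their direction and their side of the threshold in 13 of 13 alternatives. Changing the filter, adding the replicate block or leaving out a library outside the comparison cannot change a fold change. Those alternatives bear on the call alone and not on the direction. Of 351 gene values under alternatives, 339 kept both, 11 lost the call and 1 reversed. The reversal was FOS between the knockouts, 0.046 without KO2 replicate 1 (limma adjusted p = 0.616, with 0.0556 to 0.791 over all alternatives), and it was not called in any setting. JUN between the knockouts lost its call with a pseudocount of 0.1 FPKM (-0.32), no filter (-0.30), quantile normalization (-0.26), TPM scaling (-0.26) and on leaving out a knockout library (-0.36 to -0.23); its limma adjusted p ranged from 0.00471 to 0.201. FOSL1 between the knockouts lost it without a KO1 library (-0.63 and -0.64; range over left-out libraries -0.75 to -0.52, limma adjusted p over all alternatives 7.27e-05 to 0.0581). Scaling to equal sums moved the median of all genes against WT by 0.14 and 0.15 and voom by 0.16 and 0.17; between the knockouts it turned 1800 higher and 2403 lower into 2267 and 1943. With at least 5 FPKM required, 9303 genes were tested and 8142 and 8194 were called in KO1 and KO2. Leaving out 1 library moved the number called between the knockouts from 4203 to between 1849 and 3365; the fewer samples are part of each such fit, in which a lone library is assumed to vary like the others. The replicate numbers did not pair the libraries (correlations of deviations 0.019, -0.004 and -0.038); with the replicate block 12344 genes were called in KO1, 12528 in KO2 and 3467 between the knockouts, and JUN was the only one of the 10 genes to lose a call (-0.30, limma adjusted p = 0.0866). Depth limits FOSB, at 46 to 107 reads. With 2 libraries a group, small differences cannot be resolved.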

Other observations

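Of 9 NF-kB feedback genes, 9 were lower in KO2 than in KO1 (median log2 fold change -0.96), where 15.0% of all genes were called lower. The same 9 were lower with quantile normalization, equal library sums and voom, which called 2130, 1943 and 2702 of all 16046 genes lower. Like the other lists, this one was chosen with earlier results of these data known, so its count is a description. Against WT, 5 rose and 3 fell in KO1 (0.48) and 4 rose and 5 fell in KO2 (-0.48), where 39.3% and 39.1% of all genes were called higher and 38.6% and 39.8% lower. TNFAIP3, a ubiquitin-editing inhibitor of NF-kB, averaged 2.53 ± 0.188 FPKM for WT, 18.1 ± 0.045 for KO1 and 4.67 ± 0.114 for KO2. ICAM1, an adhesion molecule, was at 2.22 ± 0.0237, 13.8 ± 0.352 and 4.48 ± 0.0418 FPKM. NFKB2 rose in KO1 (0.48) and fell in KO2 (-0.48).

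Of 11 ATF4 and stress response genes 9 were tested, and 8 of them were lower in KO2 than in KO1 (median -0.55), against 15.0% of all genes; 6 rose and 2 fell in KO1 (1.13), and 4 rose and 4 fell in KO2 (0.14), against 39.3% and 39.1% of all genes called higher. CHAC1, a glutathione-degrading enzyme gene, averaged 3.11 ± 0.355 FPKM for WT, 23.1 ± 1.08 for KO1 and 4.80 ± 0.472 for KO2. CEBPB rose from 40.5 ± 2.54 FPKM to 139 ± 0.877 and 94.0 ± 3.02. Of 10 genes of proteases and partners that AP-1 is known to activate 6 were tested; 5 rose and none fell in each knockout (1.28 and 1.06), against 39.3% and 39.1% of all genes called higher, among them CD44, from 5.39 ± 0.383 FPKM to 24.4 ± 0.593 and 16.8 ± 0.435. Of 8 heat shock genes, 8 fell in KO1 and 7 in KO2 (-1.01 and -0.93), where 38.6% and 39.8% of all genes were called lower. HSP90AA1 lost its call in KO1 with quantile normalization and was called higher in KO2 with quantile normalization, equal sums and voom. Between the knockouts 5 of the 8 were higher in KO2 and 1 lower (0.23), where 11.2% of all genes were called higher and 15.0% lower. HSPA8, a constitutive chaperone gene, fell from 568 ± 7.28 FPKM to 110 ± 1.72 and 126 ± 1.26.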
